A study of Mus musculus with 12 samples.

Results

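The 10 genes described here encode the serine synthesis enzymes Psat1, Phgdh and Psph, the mitochondrial one-carbon enzymes Shmt2 and Mthfd2, asparagine synthetase (Asns), the stress transcription factors Atf4 and Ddit3, and the stress response proteins Trib3 and Chac1. They were taken by name from 21232 genes with deposited read counts, and the names were chosen with earlier results of these data known. All 10 were among the 12736 genes that passed the filter on low counts and were tested. The cells were C2C12, a long-established line of mouse myoblasts labelled with the strain C57BL/6, which leave the cell cycle and fuse into myotubes after a drop in serum. RNA was sequenced in 4 groups with 3 libraries each, 12 in all, and the libraries of each group are named A, B and C. The first group was proliferating myoblasts in growth medium with fetal bovine serum, taken at 0 h. The other groups were kept in differentiation medium with horse serum and taken at 48 h. They were control cells, cells given TNF (tumour necrosis factor alpha, an inflammatory cytokine) at 10 ng/ml for those 48 h, and cells in which Fbxl2, the gene of an F-box protein of a ubiquitin ligase, had been silenced by siRNA. Growth stage, medium and time differ together between proliferating and control cells and cannot be told apart. The labels name no separate cultures behind A, B and C. The p-values therefore set group differences only against the spread between these libraries, and that spread may be technical. Nor do they say if a non-targeting siRNA was given to the control or TNF cells.

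Serine is made from a glycolytic intermediate in a short pathway: Phgdh takes the first step, Psat1 transfers the amino group and Psph removes the phosphate. Shmt2 passes a carbon unit from serine to folate in mitochondria and Mthfd2 oxidises it, which feeds the synthesis of purines and thymidylate in dividing cells. Under amino acid shortage or endoplasmic reticulum stress, kinases phosphorylate the translation factor eIF2alpha, general translation falls, and translation of Atf4 messenger RNA rises. The ATF4 protein then activates genes of amino acid synthesis, transport and tRNA charging, so that the level of Atf4 messenger RNA alone does not show how much of the protein is present.

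ATF4 acts with C/EBP proteins at a composite DNA element, the CARE, written TGATGNAA. Its letters were searched on both strands in the 300 bases around each start site in the RefSeq promoter table for mouse (GRCm38.p6), from 250 bases before the start to 50 after it. All 10 genes were found in that table, with 11 promoters. The letters occurred in 3 of the 11 promoters, which belong to 3 of the 10 genes, and in 1304 of the 32851 promoters counted (3.97%). Promoters of a chromosome that holds none of the 10 genes were left out of the count. The 3 are shown because they hold the letters, and their genes are also those that fell most between proliferation and control. Positions are counted from the RefSeq start site, the windows are given 5′ to 3′ on the strand of the gene, and capitals mark the match. The Chac1 window is chr2:119351003-119351102 on the plus strand, with a match on the opposite strand from -193 to -186. The Asns window is chr6:7693214-7693243 on the minus strand, with a match from -23 to -16. The Trib3 window is chr2:152344028-152344057 on the minus strand, with a match on the opposite strand from 15 to 22 bases after the start.
Chac1: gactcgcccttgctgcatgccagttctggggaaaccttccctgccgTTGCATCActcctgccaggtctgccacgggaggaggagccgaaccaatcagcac
Asns: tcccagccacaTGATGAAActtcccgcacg
Trib3: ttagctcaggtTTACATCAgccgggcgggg
The endoplasmic reticulum stress element ERSE was searched in the same way. It occurred in 39 promoters (0.119%) and in none of the 11. A match describes letters in a window and shows no binding.

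Fbxl2, the silenced gene, had 22.2 ± 1.52 CPM (counts scaled to a common library size, SD, n = 3) in the cells that received its siRNA. Proliferating cells had 25.9 ± 1.71, control cells 32.9 ± 1.30 and TNF-treated cells 28.9 ± 1.05. It was lower after siRNA than in control (log2 fold change -0.57, edgeR adjusted p = 1.67e-07), and the siRNA and control libraries did not overlap. Library totals ran from 26416978 to 32917763 counts. The myoblast genes Myod1, Myf5, Des, Cdh15 and Pax7 summed to between 981 and 1809 CPM in every library. Of markers of other cell types, the macrophage list summed to at most 2.77 CPM, with Adgre1 at 0 in all groups, and the endothelial list to at most 0.409 CPM. Fibroblast markers, which C2C12 cells also express, summed to 461 to 612 CPM in proliferating cells and 2274 to 2342 in control. They summed to 2061 to 2166 in TNF and 1563 to 1679 in siRNA libraries. Col1a1 was the highest of these markers in every group, and the others did not all follow it. Between control and TNF, mean Col1a1 went from 1813 to 1971 CPM and Pdgfra from 15.8 to 32.4. Dcn went from 488 to 119 CPM and Lum from 1.08 to 0.0711. Their part in the results was not tested.

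The proliferation libraries stood apart from each other for these genes, as the plot of deviations within groups shows. Library A was the highest of the 3 for all 10 genes, and library B the lowest for 9. The ratio of the highest to the lowest library was 1.07 for Psat1, 1.75 for Chac1, 2.13 for Ddit3 and 2.36 for Trib3, against a median of 1.14 over all genes tested. The order with A highest and B lowest was found in 26.4% of all genes tested. Among 35 other ATF4 targets it was found in 31, among 12 purine synthesis genes in 0, and among 19 endoplasmic reticulum chaperone and related genes in 1. In the other groups the 10 genes differed between libraries by a ratio of at most 1.28. Comparisons are therefore given from the fit to all 12 libraries and, where calls differ, from a fit without the proliferation libraries, which was added after seeing the data.

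**Figure D1:**
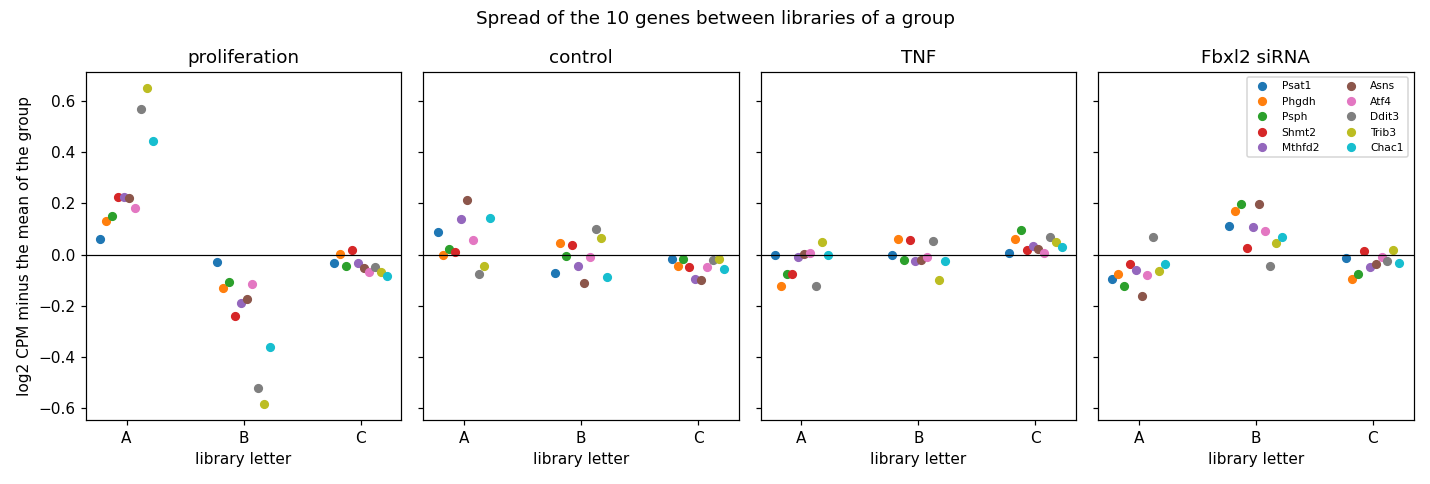
Deviation of each of the 10 genes (points, by library) from the mean of its group, in log2 CPM, for the 4 groups. Proliferation library A lies above the others for all 10 genes, and the spread is widest for Ddit3, Trib3 and Chac1.

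The group means of the 10 genes had the same top and bottom throughout. Proliferating cells were highest for all 10 genes and control cells were lowest for all 10, with TNF and Fbxl2 siRNA between them. Together they took 0.205% to 0.262% of the counts of a proliferation library and 0.0572% to 0.0609% of a control library. The share was 0.0845% to 0.0884% with TNF and 0.0859% to 0.0976% after Fbxl2 siRNA. Per kilobase of exon in the GENCODE M21 annotation, Atf4 had the highest level of the 10 in every group (220 CPM per kb in proliferating and 89.5 in control cells), followed by Phgdh (140 and 32.3) and Psat1 (122 and 24.4). The lowest per kilobase were Psph in proliferating cells (17.0) and Trib3 in control cells (2.21).

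**Figure D2:**
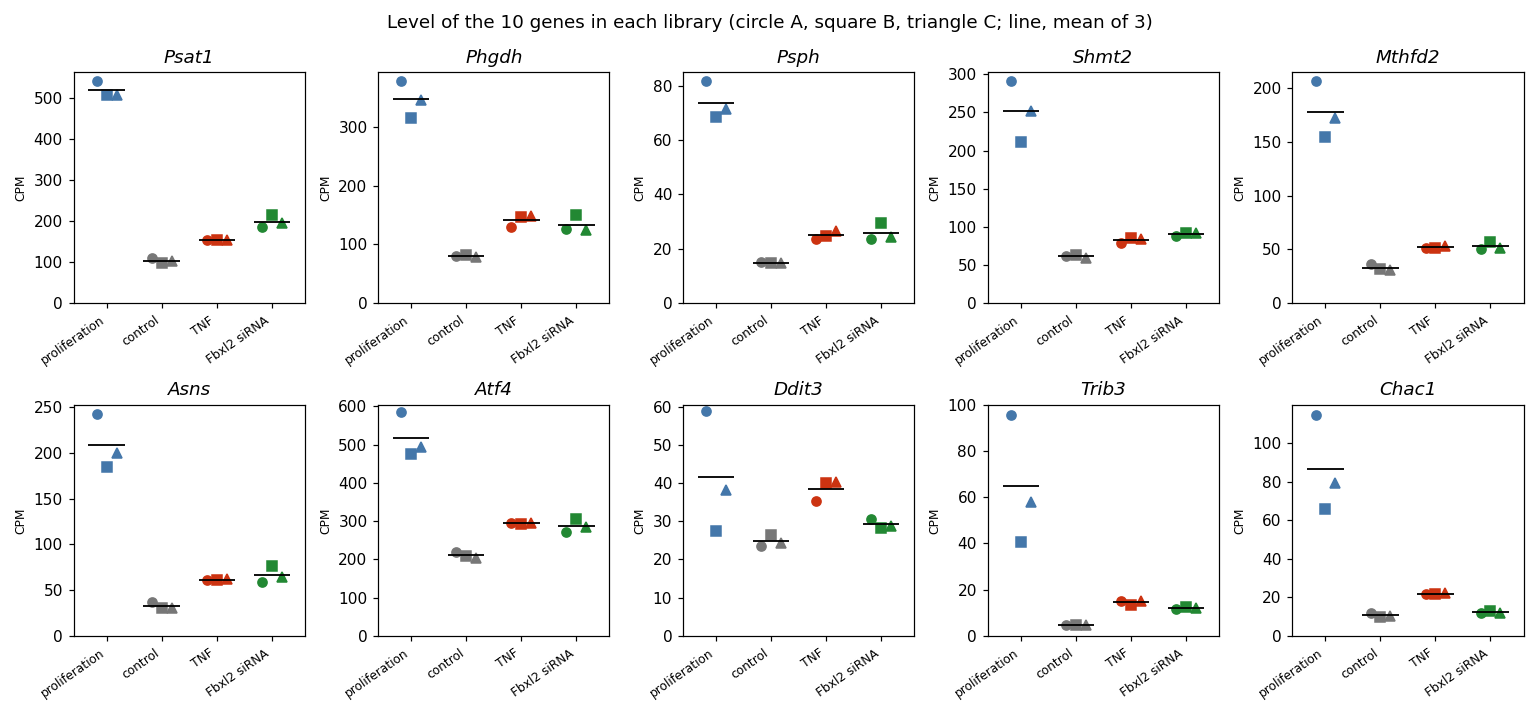
CPM of each of the 10 genes in the 12 libraries (linear axis, circle A, square B, triangle C, with a line at the mean of the 3). Proliferating cells have the highest group mean and control cells the lowest for each gene. Ddit3 in proliferation library B (27.6 CPM) lies just above the control libraries and below the TNF and siRNA libraries.

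Between proliferation and 48 h of differentiation, all 10 genes fell. The falls were steepest for Trib3, Chac1 and Asns and smallest for Ddit3 and Atf4. Of all genes tested, 38.9% were called lower in this comparison and 38.4% higher, so a fall alone was common. For all 10 genes the control libraries lay below the proliferation libraries without overlap, as for 39.7% of all genes. The median log2 fold change of the 10 genes was -2.32, while that of all genes tested was -0.00. In bulk RNA, fewer cells of a type and less RNA per cell cannot be told apart. The proliferation markers Mki67, Top2a and Ccnb1 summed to 1158 to 1234 CPM in proliferating cells and 303 to 349 in control, and the 4 measured markers of differentiating muscle to 37.6 to 48.9 and 1867 to 2220.5 CPM. The part of these changes in the results was not tested.

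Psat1 (GRCm38 chromosome 19, 15904678 to 15947337, minus strand) had 543, 509 and 508 CPM in proliferation libraries A, B and C. It had 110, 98.5 and 102 CPM in control libraries. The groups were far apart, and Psat1 was 5.01-fold lower in control (log2 fold change -2.33, SE 0.06, adjusted p = 3.70e-18). Phgdh, the enzyme of the first step, went from 316 to 379 CPM down to 77.8 to 82.7 (-2.11, SE 0.08). Psph, the phosphatase of the last step, went from 68.4 to 81.7 CPM down to 14.7 to 15.2 (-2.31, SE 0.08). Control cells thus held 19.9% of the proliferation level of Psat1, 20.2% of that of Psph and 23.1% of that of Phgdh.

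Shmt2 went from 211 to 292 CPM in proliferating cells to 59.2 to 62.9 in control (-2.04, SE 0.09). Mthfd2, the dehydrogenase that acts after it, went from 155 to 207 CPM to 31.0 to 36.5 (-2.42, SE 0.10). Asns, which makes asparagine from aspartate and is a standard ATF4 target, had 242, 184 and 200.2 CPM in proliferation libraries A, B and C and 37.5, 29.95 and 30.2 in control. Every proliferation library was far above every control library, a 6.40-fold difference (-2.68, SE 0.13, adjusted p = 5.95e-09).

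Atf4 (chromosome 15, 80255184 to 80257541, plus strand) had 585, 476 and 493 CPM in proliferation libraries A, B and C and 219.7, 209.6 and 204 in control. It was lower in control by -1.29 on the log2 scale (SE 0.06, adjusted p = 2.35e-13), where the 6 enzyme genes had values from -2.68 to -2.04. Ddit3, which encodes the stress factor CHOP, had 58.8, 27.6 and 38.3 CPM in proliferation libraries and 23.4, 26.5 and 24.3 in control. Proliferation library B lay just above the highest control library, and the change was the least certain of the 10 (-0.75, SE 0.23, adjusted p = 0.0164). It was no longer called when control library A was left out (adjusted p = 0.0518), when all libraries of letter C were left out (0.131) or when only the libraries of these groups were fitted (0.0673).

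Trib3, a pseudokinase that feeds back on ATF4 signalling, had 95.5, 40.5 and 58.0 CPM in proliferation libraries and 4.55, 4.91 and 4.64 in control. Even the lowest proliferation library was far above the highest control library (-3.79, SE 0.34, adjusted p = 6.10e-06). Chac1, an enzyme that degrades glutathione, had 114.6, 65.5 and 79.3 CPM in proliferation libraries and 11.7, 9.99 and 10.2 in control (-3.02, SE 0.20, adjusted p = 4.10e-07). Its groups were likewise far apart.

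**Figure D3:**
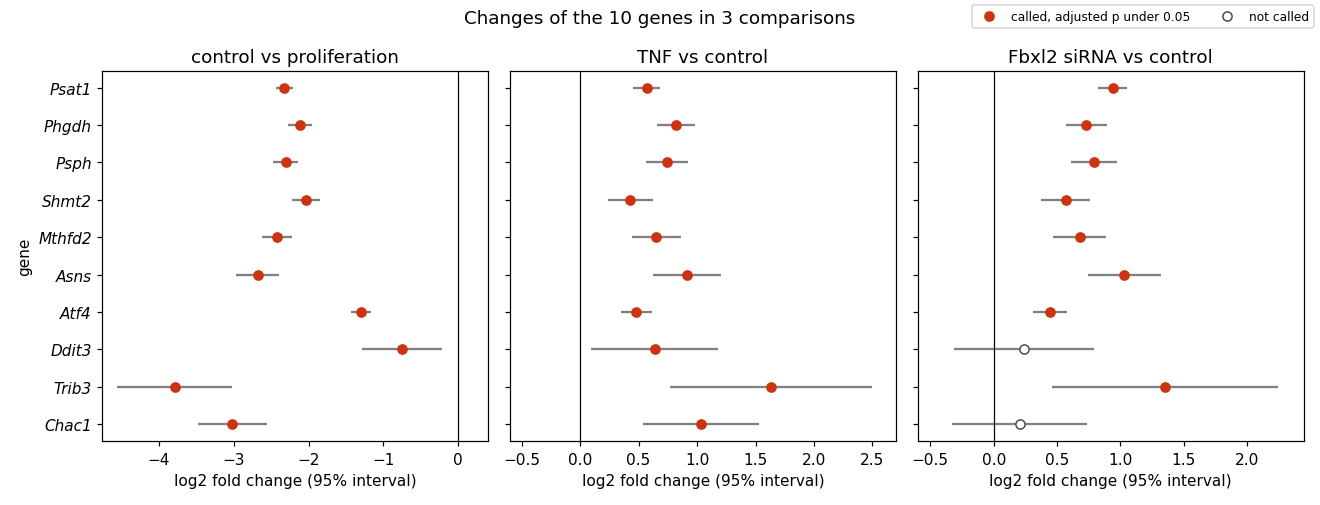
Log2 fold change with its 95% interval for each of the 10 genes in control against proliferation, TNF against control and Fbxl2 siRNA against control, from the fit to all 12 libraries (filled points, called). All 10 are called in the first and second comparison, and Ddit3 and Chac1 are not called in the third.

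With TNF, all 10 genes rose above the differentiated control, and none reached its mean level in proliferating cells. In this comparison 31% of all genes tested were called higher and 23.6% lower. The median log2 fold change of the 10 genes was 0.70, against 0.03 for all genes tested. No TNF library overlapped a control library for any of the 10, a separation found upwards in 36.2% of all genes. The share of higher genes among all calls was 56.8%, and it was 46.1% when libraries were scaled by their totals and 46.5% with upper quartile scaling. The 10 genes kept their direction under each scaling. Proliferation markers summed to 597 to 642 CPM with TNF and muscle markers to 411 to 570, in each case between control and proliferating cells. All 5 myoblast markers fell with TNF (median -0.72), and their sum of 981 to 1039 CPM lay below that of control (1739 to 1809) and of proliferating cells (1404 to 1552). The part of these marker changes in the results was not tested.

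Psat1 had 154, 154 and 155 CPM in TNF libraries A, B and C, a narrow range well above the control libraries (1.48-fold, log2 fold change 0.57, SE 0.05, adjusted p = 1.86e-08). Phgdh rose to 130.2 to 148 CPM (0.82, SE 0.08) and Psph to 23.7 to 26.7 (0.74, SE 0.09). Shmt2 had the smallest rise of the 10, to 78.3 to 85.9 CPM (0.43, SE 0.09, adjusted p = 0.000945), and Mthfd2 rose to 51.2 to 53.3 (0.65, SE 0.10). Asns had 61.6, 60.6 and 62.5 CPM in TNF libraries, all above the highest control library of 37.5 (1.88-fold, 0.91, SE 0.13, adjusted p = 0.000135).

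Atf4 had 296, 293 and 295 CPM with TNF, against at most 219.7 in control (0.48, SE 0.06, adjusted p = 2.08e-06). Trib3 had the largest rise, with 15.03, 13.6 and 15.06 CPM in TNF libraries (3.10-fold, 1.63, SE 0.38, adjusted p = 0.00578). Chac1 had 21.8, 21.5 and 22.3 CPM, all above the highest control library of 11.7 (2.05-fold, 1.03, SE 0.22, adjusted p = 0.00289). With library C of every group left out, Trib3 and Chac1 were no longer called (adjusted p values of 0.0955 and 0.0564).

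Ddit3 had 35.2, 39.9 and 40.3 CPM with TNF, all above the highest control library of 26.5. Its call was marginal in the fit to all libraries (1.56-fold, 0.64, SE 0.24, adjusted p = 0.0482) and was lost in 17 of 24 alternatives, with adjusted p values up to 0.307. In the fit without the proliferation libraries, which called 58.7% of all genes in either direction, all 10 genes were called higher. Ddit3 then had a value of 0.61 on the log2 scale (SE 0.06, adjusted p = 2.71e-08). TNF-treated and proliferating cells overlapped for Ddit3 (log2 fold change -0.12, adjusted p = 0.664), while the other 9 genes stayed lower with TNF than in proliferation. In that comparison 36.5% of all genes tested were called lower.

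After Fbxl2 siRNA, 8 of the 10 genes rose above control, and Ddit3 and Chac1 were not called. Of all genes tested, 34.1% were called higher and 29.8% lower. The median log2 fold change of the 10 genes was 0.70, against 0.03 for all genes. For all 10 genes the siRNA libraries lay above the control libraries without overlap, which was the case upwards for 38.6% of all genes. This comparison and the one of TNF use the same control libraries. Proliferation markers summed to 667 to 708 CPM after siRNA and muscle markers to 580 to 917, between control and proliferating cells as with TNF. Of the 5 myoblast markers 3 fell and 1 rose, with sums of 1706 to 1796 CPM. The part of these markers in the results was not tested.

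Psat1 had 186, 215 and 197 CPM after siRNA and was 1.92-fold above control (log2 fold change 0.94, SE 0.05, adjusted p = 9.20e-12). These libraries were also above every TNF library. Phgdh had 124 to 149 CPM (0.73, SE 0.08), Psph 23.7 to 29.5 (0.79, SE 0.09), Shmt2 88.4 to 92.3 (0.57, SE 0.09) and Mthfd2 50.9 to 57.2 (0.68, SE 0.10). Asns had 59.3, 76.2 and 64.7 CPM (2.04-fold, 1.03, SE 0.13, adjusted p = 4.18e-05), with library B highest. Library B was the highest siRNA library for 9 of the 10 genes. How often it was highest among all genes was not counted. The ratio of the highest to the lowest siRNA library ran from 1.04 to 1.28 for the 10 genes, against a median of 1.10 over all genes tested.

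Atf4 had 272, 306 and 285 CPM after siRNA, above every control library (0.45, SE 0.06, adjusted p = 4.49e-06). Trib3 had 11.5, 12.4 and 12.1 CPM, against 4.55 to 4.91 in control (2.55-fold, 1.35, SE 0.39, adjusted p = 0.0145). It was no longer called with library B of every group left out (adjusted p = 0.0542), or library C (0.129). Ddit3 had 30.6, 28.3 and 28.7 CPM, slightly above the control range. Its log2 fold change was 0.24 (95% interval -0.31 to 0.79, adjusted p = 0.415). Chac1 had 12.005, 12.9 and 12.03 CPM against at most 11.7 in control (0.21, 95% interval -0.33 to 0.74, adjusted p = 0.470).

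Without the proliferation libraries all 10 genes were called higher after siRNA, in a fit that called 67.2% of all genes in either direction. Ddit3 then had a log2 fold change of 0.21 (adjusted p = 0.00604) and Chac1 of 0.17 (adjusted p = 0.0449), so both differences were small in either fit. Against proliferating cells, 9 genes were lower after siRNA and Ddit3 was not called (-0.51, adjusted p = 0.0851), where 31.1% of all genes tested were called lower.

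TNF and Fbxl2 siRNA were compared directly, which tests whether their levels differ. Psat1 was lower with TNF than after siRNA (log2 fold change -0.37, SE 0.05, adjusted p = 5.72e-06), and Chac1 was higher with TNF (1.78-fold, 0.83, SE 0.22, adjusted p = 0.00841). The other 8 genes were not called, while 60.5% of all genes tested were called in either direction. For Atf4 the difference was 0.03, with a 95% interval from -0.10 to 0.17. For Phgdh it was 0.09 (interval -0.07 to 0.25), for Psph -0.05 (-0.22 to 0.12) and for Mthfd2 -0.03 (-0.23 to 0.17). These intervals give the differences that the fit does not exclude. Chac1 was no longer called with library C of every group left out (adjusted p = 0.0893).

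The number of genes called in this comparison depended on the proliferation libraries, although they belong to neither group. Without them, 5 of the 10 genes were called, where 64.4% of all genes were. Psat1 and Shmt2 were lower with TNF, with -0.14 for Shmt2 (adjusted p = 0.00869). Chac1, Ddit3 and Trib3 were higher, with 0.40 for Ddit3 (adjusted p = 7.54e-06) and 0.28 for Trib3 (adjusted p = 0.00185). In the fit to all libraries these differences were nearly the same in size and had wider errors: -0.14 (SE 0.09) for Shmt2, 0.40 (SE 0.23) for Ddit3 and 0.28 (SE 0.33) for Trib3. The TNF and siRNA libraries did not overlap for these 5 genes and overlapped for the other 5. Without overlap, TNF was above siRNA in 32.9% of all genes tested and below it in 33.4%.

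**Figure D4:**
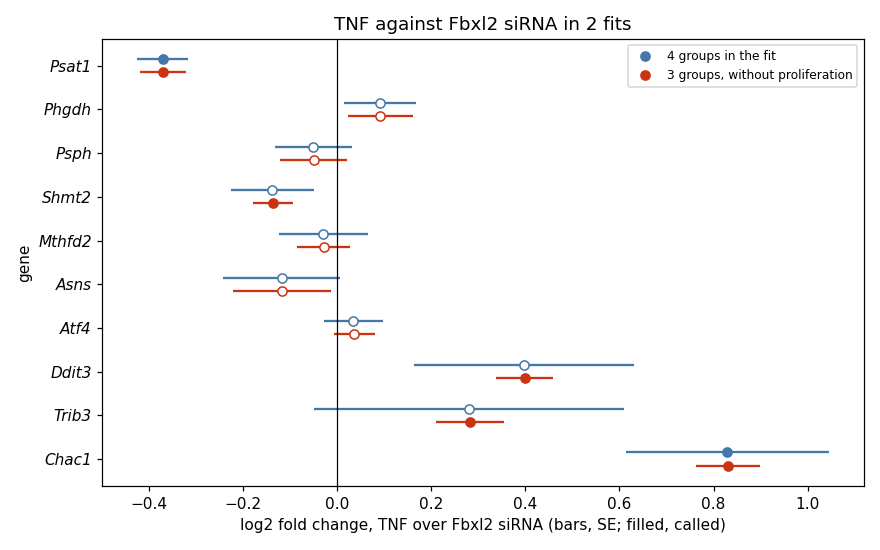
Log2 fold change of TNF over Fbxl2 siRNA for the 10 genes, with SE, in the fit to all 12 libraries and in the fit without the proliferation libraries (filled points, called). The estimates of the fits lie close together, and the errors of Ddit3, Trib3 and Chac1 are wider when the proliferation libraries are included.

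Genes of the same pathways were read from lists chosen with earlier results of these data known. Of 28 other serine, glycine and folate one-carbon genes tested, 17 fell and 7 rose between proliferation and control, with a median log2 fold change of -0.25. Of all genes tested, 38.9% were called lower and 38.4% higher there. Mthfd1l, which releases mitochondrial formate, fell from 106 ± 6.43 to 27.8 ± 0.724 CPM (SD, n = 3). It rose to 48.7 ± 0.771 with TNF and 63.2 ± 1.55 after siRNA, and like Psat1 it was lower with TNF than after siRNA (-0.38, adjusted p = 1.64e-06). Tyms, the thymidylate synthase gene, fell by 1.84 on the log2 scale and rose by 0.96 with TNF and 0.98 after siRNA. Sfxn1, a mitochondrial serine transporter gene, rose by 0.99 with TNF and by 0.56 after siRNA.

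In that list 14 of 28 genes rose and 4 fell with TNF (median 0.18), where 31% of all genes tested rose and 23.6% fell. After siRNA 14 rose and 6 fell (median 0.18), where 34.1% of all genes rose and 29.8% fell. Ahcyl1 was among those that fell after siRNA, from 231 ± 3.92 to 160 ± 6.55 CPM. All 12 purine synthesis genes fell between proliferation and control, with a smaller median of -0.58, where 38.9% of all genes tested were called lower. The 12 included Adss (-1.03) and Impdh2 (-0.83), which act after the branch point at inosine monophosphate. With TNF 9 purine genes rose and 1 fell, Impdh1 (-0.26), and after siRNA 9 rose and 1 fell.

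Of 35 other ATF4 targets, 29 fell and 2 rose between proliferation and control, with a median of -1.06. Of all genes tested, 38.9% were called lower and 38.4% higher in that comparison. The tRNA synthetase gene Cars fell from 130 ± 15.2 to 45.8 ± 2.11 CPM. Slc7a11, the cystine transporter gene, fell from 60.7 ± 1.71 to 27.2 ± 1.35 CPM, and Ddit4, an inhibitor of mTORC1 signalling, fell by 1.77 on the log2 scale. With TNF 23 of the 35 rose and 4 fell (median 0.39), where 31% of all genes tested rose and 23.6% fell. After siRNA 14 rose and 6 fell (median 0.04), where 34.1% of all genes rose and 29.8% fell. Without the proliferation libraries 15 rose and 10 fell after siRNA, in a fit that called 67.2% of all genes in either direction. As among all genes tested, both directions occurred in the list after siRNA. Slc7a11 rose by 0.71 and Cars by 0.49, while Herpud1, a gene of endoplasmic reticulum protein degradation, fell from 67.4 ± 3.47 to 36.1 ± 0.415 CPM.

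Compared directly, 19 of these 35 targets were higher and 3 lower with TNF than after siRNA, with a median of 0.25 against -0.01 over all genes tested. Of all genes, 29.9% were called higher and 30.6% lower, and the share called in either direction was 60.5%. Without the proliferation libraries 24 of the 35 were higher and 6 lower, in a fit that called 64.4% of all genes in either direction. Cebpb, a C/EBP partner of ATF4, had 23.1 ± 1.97 CPM with TNF and 10.8 ± 0.468 after siRNA (1.10, adjusted p = 5.67e-11). Atf3, another stress factor, went the other way, with 4.38 ± 0.540 CPM with TNF and 17.3 ± 1.01 after siRNA (-1.98, adjusted p = 9.53e-08). Control cells lay between them, at 7.75 ± 0.905 CPM.

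Among 12 measured eIF2alpha kinases, phosphatase subunits and ATF4 regulators, 5 rose and 1 fell with TNF, and 5 rose and 4 fell after siRNA. Of all genes tested, 31% rose and 23.6% fell with TNF and 34.1% rose and 29.8% fell after siRNA, and the list medians were 0.06 and 0.05. Eif2ak2, the gene of the double-stranded RNA kinase PKR, rose from 79.9 ± 3.85 to 147 ± 2.62 CPM with TNF (0.88). The phosphatase subunit gene Ppp1r15b rose by 0.44 with TNF and 0.59 after siRNA. Of 19 endoplasmic reticulum chaperone genes and other genes of the ATF6 and XBP1 branches, 14 rose and 0 fell with TNF (median 0.26). Those that rose included Edem1 (0.46) and Calr (0.44). After siRNA 5 rose and 6 fell (median 0.01), including falls of Atf6 (-0.51) and Hyou1 (-0.38). Without the proliferation libraries 7 rose and 7 fell after siRNA, with a median of -0.02, in a fit that called 67.2% of all genes. The direct comparison called 14 higher and 1 lower with TNF, where 29.9% of all genes were called higher and 30.6% lower.

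**Figure D5:**
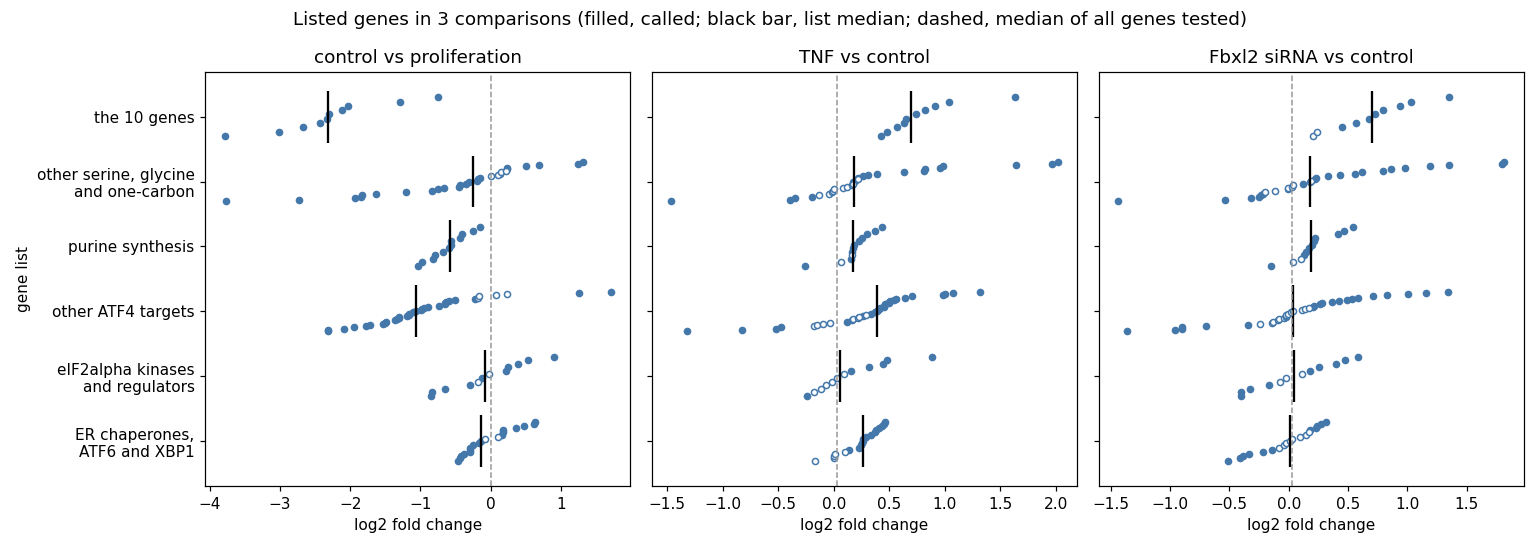
Log2 fold change of each gene of the lists in control against proliferation, TNF against control and Fbxl2 siRNA against control (filled, called; black bar, median of the list; dashed line, median of all genes tested). Of the lists shown, the 10 genes have the lowest median in the first comparison (-2.32) and the highest in the others (0.70 and 0.70).

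The genes with the pattern most like a given gene over the 4 groups were found by the root mean square difference of centred group mean log2 CPM. For Psat1 these were Nxph4 (0.07), Flt1 (0.09) and Slc5a3 (0.11), of which Nxph4 was low, at 0.168 to 1.23 CPM. Several of the 10 genes came soon after, with Psph at rank 4, Mthfd2 at 8, Shmt2 at 9, Asns at 11 and Phgdh at 26 of 12735 genes. Trib3, Chac1, Atf4 and Ddit3 were farther away, at ranks 818, 841, 419 and 2399. For Asns the nearest were Avpr1a (0.09), Nxph4 (0.10) and Gli1 (0.12), all at low levels. For Atf4 they were the glycyl-tRNA synthetase gene Gars (0.03), Impa2 (0.04) and Slc25a5 (0.04). For Ddit3 they were Man1a (0.04), Lca5 (0.04) and Dzip3 (0.04). Man1a, for example, had 26.1 CPM in proliferating, 15.6 in control, 25.3 in TNF-treated and 18.1 in siRNA-treated cells. From Asns the others of the 10 genes ranked from 5 (Mthfd2) to 1897 (Ddit3). They were far from Atf4 by this distance, at ranks 1423 (Ddit3) to 10804 (Trib3), and from Ddit3, at ranks 4062 (Atf4) to 11945 (Trib3). The distance counts the size of changes as well as the order of the groups. Atf4 and Trib3 shared the order proliferation, TNF, siRNA and control from high to low. Their log2 fold changes between proliferation and control were -1.29 and -3.79.

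Some counts may include reads of other genes, since the use of strand in counting is not given in the sources used here. Exons of Psph overlap those of Cct6a on the opposite strand over 452 bases, 10.4% of the exon bases of Psph. Cct6a, a chaperonin subunit gene, had 390 ± 48.1 CPM in proliferating cells and 209 ± 5.73 in control, 247 ± 1.61 with TNF and 278 ± 12.04 after siRNA, so the values of Psph are uncertain. Ddit3 overlaps Mars over 68 bases (3.97%) and Shmt2 overlaps Ndufa4l2 over 32 bases (1.03%). Another annotated gene model of the name Ddit3 shares 105 exon bases (6.13%) on the same strand, and the counts are given by symbol. Phgdh has 9 processed pseudogenes in the annotation with at least 95% identity, none of them in the count table, so its reads may also be uncertain.

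The authors' deposited table for TNF against control called all 10 genes, each in the direction found here. The authors' deposited table for Fbxl2 siRNA against control called 9, with Ddit3 called at a log2 fold change of 0.22 (their adjusted p = 0.00952) and Chac1 not called at 0.18 (0.137). The largest difference between these tables and the fit to all libraries was 0.03 on the log2 scale for the 10 genes. Both rest on the same libraries, so the tables are no independent evidence, and their share of all genes called was not counted. A DESeq2 refit to all libraries called 6484 of 13972 genes for TNF against control and 7652 of 13649 for Fbxl2 siRNA against control.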

How the data were processed

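The deposited table held whole-number read counts that the authors made for 21232 gene symbols in 12 libraries. CASAVA, DESeq2 and the build mm10 are named, per the submitters' processing notes. Their versions were not given in the sources used here, and neither were the aligner, the counting tool, its strand setting or the annotation. The authors also deposited 3 tables with log2 fold changes, p-values, adjusted p-values and a normalized signal. Only the log2 fold changes and adjusted p-values of these tables were used, to set beside the refit. The table named for proliferation matched TNF over proliferation (median absolute difference 0.000329) and not control over proliferation (0.214).

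Counts were analysed in R 4.3.3 with edgeR 4.0.16. filterByExpr left 12736 genes, libraries were scaled by TMM, and all 12 libraries entered a robust quasi-likelihood fit of 4 group means (8 residual degrees of freedom). Contrasts were tested with glmQLFTest and called at a Benjamini-Hochberg adjusted p under 0.05 over all genes tested. CPM use TMM-scaled totals. Standard errors were approximated from the F statistic (the size of the log2 fold change over the root of F), and 95% intervals were built from it. The test was checked on simulated counts. Replicates were not identical, with a chi-square per degree of freedom of 1.6 to 21.3. Intervals are for differences between group means and rest on the spread between libraries in the fit, and no molecular identifiers are named.

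The 10 genes, the gene lists and the marker lists were chosen with earlier results of these data known. The 10 genes are reported whatever their result. For Psat1, Asns, Atf4 and Ddit3 the 3 genes with the nearest pattern are named, on log2 CPM (prior count 2). From each other list at most 4 genes per comparison with the smallest p are named. Positions and exon lengths are from GENCODE M21 (GRCm38) and promoter sequences from RefSeq (GRCm38.p6). Of the listed genes, Gcn1 and Mymk were absent from the count table under those symbols, and Cbs and Derl3 were among those below the filter. Adipocyte markers summed to 2.78 to 13.7 CPM. The alternatives were other scalings, filters, DESeq2 1.42.0, fits to fewer libraries, a block on the replicate letter and leaving out libraries.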

Additional observations from a re-analysis of the deposited data

How the results depend on the processing

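The counts of the 10 genes called in control against proliferation, TNF against control and each 48 h treatment against proliferation or control stayed within 1.5 times of the reported value in all alternatives. In TNF against Fbxl2 siRNA, 2 genes were called, where 60.5% of all genes tested were. There were 5 when only these groups were fitted, where 7766 of 12420 genes were called. Without all proliferation libraries, an alternative chosen after seeing the data, there were also 5, where 64.4% of all genes were called. Leaving out single libraries, or the libraries of 1 letter in all groups, gave 1 to 5 in that comparison. There were 5 without proliferation replicate A, where 7994 of 12837 genes were called. There were 4 without replicate A of all groups (7219 of 12749 genes) and 4 without replicate B (7153 of 12778). Without replicate C there was 1, where 5701 of 12764 genes were called. The same 15 settings, with 12749 to 12850 genes tested, gave 9 to 10 for control against proliferation (8582 to 9973 of all genes). They gave 7 to 10 for TNF against control (5000 to 7450 of all genes) and 7 to 9 for Fbxl2 siRNA against control (6450 to 8514). Without all proliferation libraries the last count was 10, where 67.2% of all genes were called. Against proliferation, the 15 settings gave 9 for TNF (7815 to 9367 of all genes) and 9 to 10 for Fbxl2 siRNA (5977 to 8009). The cause of these differences between settings was not tested.

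No log2 fold change of a called gene changed sign. Of 1410 gene results under the alternatives, 1363 kept their side of the threshold, 22 were called only in the alternative and 25 lost their call, 17 of them Ddit3 in TNF against control. The replicate letters showed no pairing of the libraries that held for every pair of groups. The correlation of deviations from group means was over 0.1 in 3 of 18 same-letter pairs, from -0.0957 to 0.183. The highest was control A with TNF A and the lowest proliferation B with TNF B. Proliferation with siRNA had 0.124 for letter A, 0.115 for B and 0.0638 for C. Of the pairs of unlike letters, only control B with TNF C was over 0.1, at 0.131. This check does not settle whether libraries were paired. In the titles the A libraries carry the lowest sample numbers, and what these numbers mark is not stated. A replicate block on the letter called 10 genes for control against proliferation, 9 for TNF against control and 8 for Fbxl2 siRNA against control. Of all 12736 genes tested, that fit called 9897, 7070 and 8239 in these comparisons. The block ended the Ddit3 call with TNF (adjusted p = 0.0699). Each group had 3 libraries, and the smallest exact permutation p of 3 against 3 is 0.1, so single-gene tests rest on the spread shared across genes.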
